A study of Mus musculus with 6 samples.

Results

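RNA from sorted stromal cells of inflamed mouse colon was examined for what these cells express and how much of it. The 3 libraries came from 3 mice, numbered 8, 9 and 43, whose Il10ra alleles were floxed (Il10ra ff) and which carried no cre, so that the gene was left intact. At an age of 12 weeks they were given dextran sulfate sodium (DSS) at 1%, which injures the epithelium of the colon and causes colitis. Live cells with Podoplanin on their surface and without CD45, CD31 and EpCAM, the surface proteins of leukocytes, endothelium and epithelium, were sorted from whole colons. The series holds 6 mice in all, and the 3 that also carried Pdgfra-cre were not used here. No library from untreated colon was analysed here, so no value below says what DSS changed.

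A gene was counted as expressed where its FPKM was at least 1 in each of the 3 libraries. FPKM counts fragments per kilobase of a transcript for every 1000000 fragments mapped, a level per length, so genes can be ranked against each other within a library. Of 24346 genes, 10522 were expressed by this rule, and 10508 were ranked after 14 small RNA genes were set aside. The lowest values just inside the limit were 1.0015 FPKM in 4931431C16Rik and 1.0025 in Gipc2, and those just outside were 0.9997 in Afmid and 0.9987 in Soga1. Of the 13824 genes left out, 751 reached 1 FPKM in 2 libraries, 855 in 1 library and 3896 were detected below 1 in all, while 8322 were listed at 0 in every library. Each library held 11289 to 11343 genes at or above 1 FPKM, and its summed FPKM lay between 493314 and 523344. The sources used here give no read totals. The most frequent low values put 1 FPKM very roughly at 7.50 to 8.41 fragments per kilobase, so a gene near the limit rested on few fragments. Values after ± are SD over the 3 mice (n = 3). With 1 group of 3 mice there was nothing to test, and differences between genes are read against the ranges over the mice.

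Stromal cells of the gut wall build the collagen and proteoglycan scaffold between epithelium and muscle. They also signal to their neighbours: BMP, WNT and R-spondin proteins set the position and renewal of epithelial cells, and chemokines and cytokines call in and keep leukocytes. Fibroblasts are a major stromal population, and in colitis they are known as a source of chemokines and of proteases that remodel matrix.

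The sorted cells carried a fibroblast profile. All 15 genes of the fibroblast marker list were expressed, led by Gsn and Dcn, with a median of 524 FPKM against 11.8 for all ranked genes. Pdpn, which encodes Podoplanin, was at 96.4, 102 and 78.3 FPKM in libraries 8, 9 and 43. Pdgfra, a receptor typical of fibroblasts, was at 178, 186 and 200. The genes used to gate cells out were near 0: Ptprc (CD45) lay between 0.170 and 0.498 FPKM, Pecam1 (CD31) between 0.0741 and 0.711, and Epcam was listed at 0 in libraries 8 and 43 and at 0.445 in library 9. Il10ra, the floxed gene, was listed at 0 in libraries 8 and 9 and at 0.418 in library 43, while Il10rb, its partner chain, was at 59.5 ± 6.81.

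Markers of other stromal types were present at lower levels. Of the smooth muscle list, 12 of 12 genes were expressed, led by Acta2 at 317 ± 30.8 FPKM, and activated fibroblasts also express several of them. The list for fibroblasts with high Pdgfra that lie under the epithelium had 13 of 15 expressed, with a median of 29.1. The list for crypt-base or adventitial fibroblasts with Cd81 or Cd34 had 14 of 14, with a median of 209. Of the pericyte list 7 of 10 were expressed, led by Pdgfrb at 41.6 ± 4.56, and of the list for interstitial cells of Cajal 3 of 6, led by Gja1, which fibroblasts share. Fibroblastic reticular cell markers were mixed, with 3 of 7 expressed. Cxcl13 was at 693 ± 228, and Ccl19 was uneven at 22.2, 83.6 and 6.73 in libraries 8, 9 and 43. Madcam1 was not expressed, and Ccl21a, at 1.52, 1.20 and 0.864, missed the limit in library 43. In bulk RNA, fewer cells of a type and less RNA per cell cannot be told apart.

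Of the marker lists for leukocytes, endothelium, epithelium and further cell types, smaller parts were expressed than of the fibroblast list. Over all 24346 genes the share was 43.2%. Among these lists only that of macrophages and dendritic cells was above it, at 50%. None of the neutrophil (13), T and natural killer cell (13) and mast cell (9) lists was expressed, and in each the highest gene, S100a8, Lck and Kit, missed the limit in at least 1 library. Of 22 epithelial genes only Dclk1 passed, at 30.8 ± 2.04 FPKM, and Aqp8, Car4, Chga, Slc26a3 and Tff3 were listed at 0 in all libraries. Of 12 blood endothelial genes 3 passed, led by Tek at 31.6 ± 4.03, while Cdh5 and Cldn5 were at 0. The lymphatic list had 2 of 8, led by Pdpn itself. Of 18 macrophage and dendritic cell genes 9 passed, the highest being Lyz2 at 20.3, 13.3 and 10.9, and of 10 pan-leukocyte genes 2 passed, led by Srgn at 8.79 ± 7.78. The B and plasma cell list had 3 of 10, led by Xbp1 at 299 ± 21.4, a factor that secreting cells of many kinds use. Enteric glia had 3 of 10, enteric neurons 1 of 11 with Tubb3 at 3.61 ± 1.78, mesothelium 1 of 10 with Wt1 at 2.13 ± 1.49 and adipocytes 1 of 8 with Lpl at 148 ± 15.5. Of 7 red blood cell genes 3 passed, led by Hba-a1 at 71.7 ± 23.6. The Y-linked genes Ddx3y, Eif2s3y, Uty and Kdm5d were expressed in each library and Xist was at most 0.0118.

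**Figure D1:**
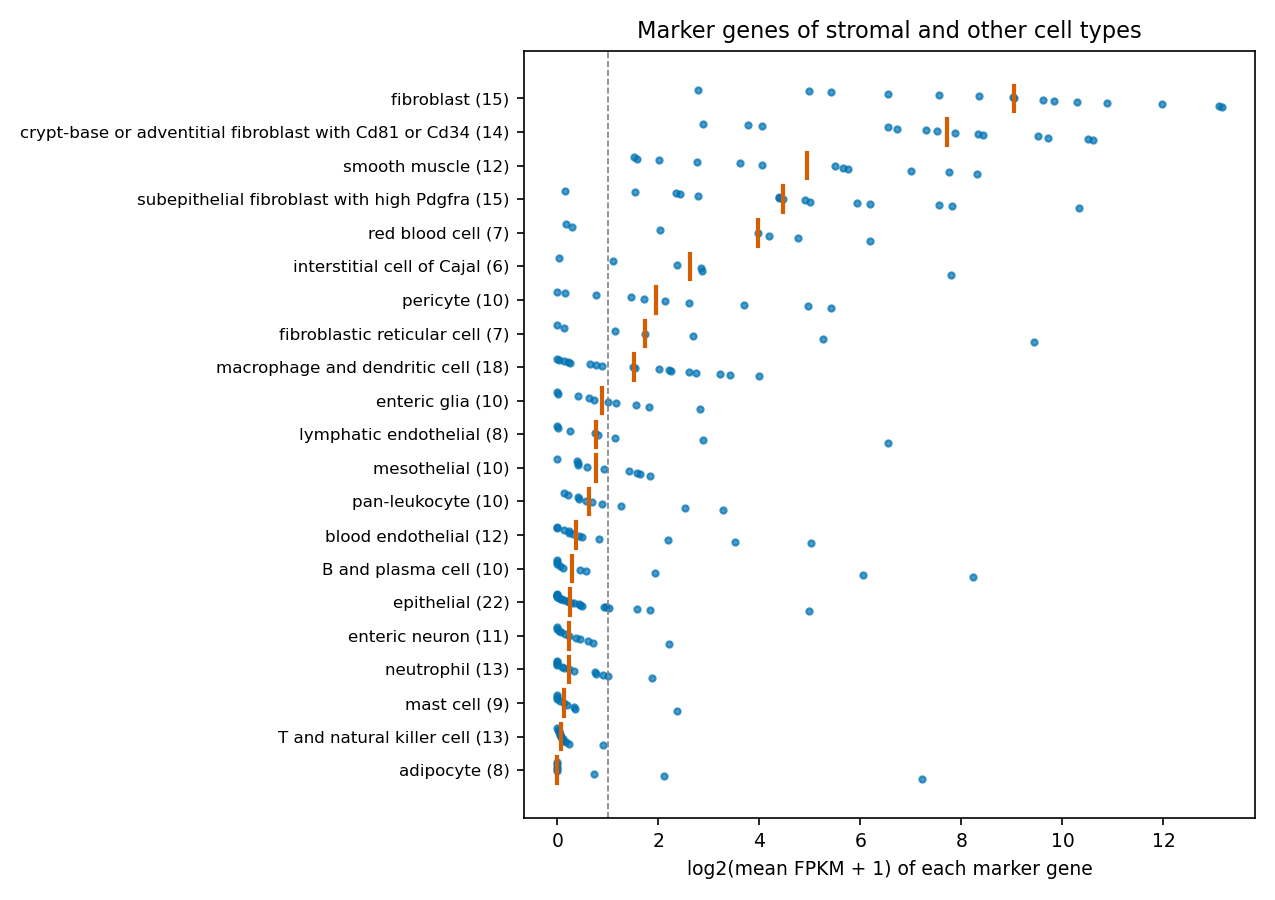
Each point is a marker gene at its mean level over the 3 control libraries, on a log2(FPKM + 1) axis, grouped by cell type list with the number of genes in brackets. Orange bars are list medians and the dashed line is 1 FPKM. Fibroblast markers have the highest median, and the medians of the neutrophil, mast cell and T cell lists lie below 1 FPKM.

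Abundance was steep. The median expressed gene stood at 11.8 FPKM, and the 5th to 95th percentiles ran from 2.01 to 172. A mean of at least 100 FPKM was reached by 914 genes and of at least 1000 by 52, and those 52 held 22.9% of the summed FPKM of expressed genes. The 10 most abundant genes held 9.32% ± 0.106, the 20 most abundant 13.9% ± 0.0721, the 100 most abundant 30.4% ± 0.570 and the 1000 most abundant 67.7% ± 0.819. The curves of the 3 libraries ran nearly on top of each other. Protein-coding genes made up 10243 of the ranked genes and 98.5% of the sum.

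**Figure D2:**
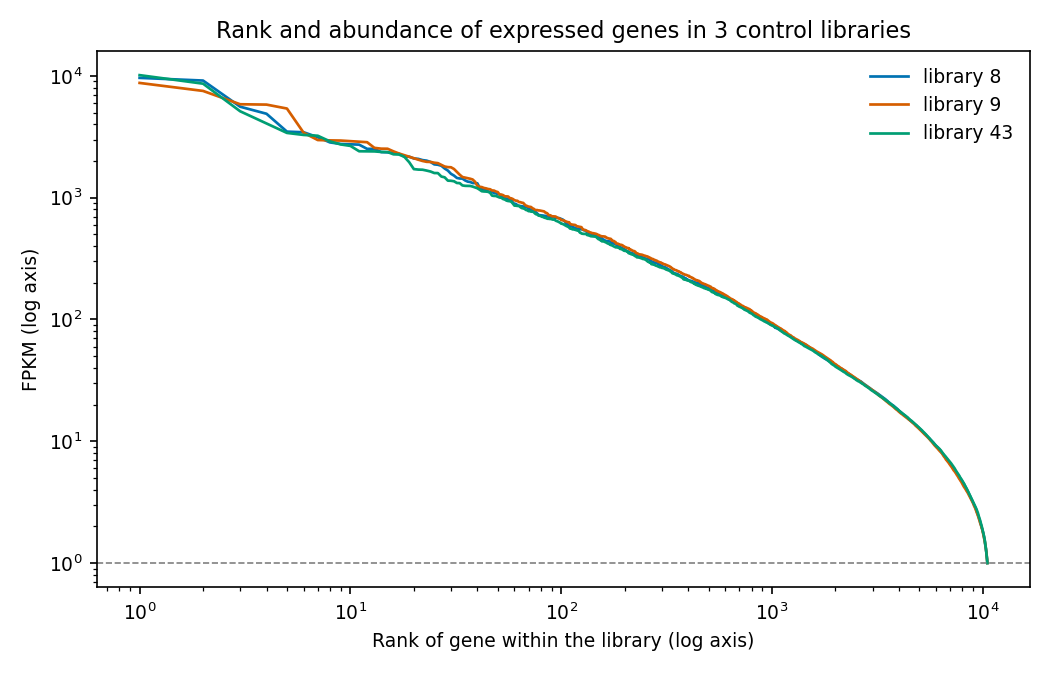
FPKM of every ranked gene against its rank within its own library, both axes logarithmic, 1 line per control library. The dashed line marks the limit of 1 FPKM, and the 3 lines separate visibly only among the most abundant 100 genes.

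Gsn and Dcn stood at the top. Gsn encodes gelsolin, which cuts actin filaments inside cells and also has a secreted form (chromosome 2, 35256380 to 35307892, GRCm38, the assembly mm10 is based on). It was at 9625 FPKM in library 8, 7520 in library 9 and 10135 in library 43. Dcn encodes decorin, a small proteoglycan that binds collagen fibrils (chromosome 10, 97479609 to 97518143). It was at 9149, 8747 and 8626 in the same order. Their ranges overlapped, with Gsn ahead in libraries 8 and 43 and Dcn ahead in library 9. Every library had Dcn above Ftl1 and Fth1, the light and heavy chains of the iron store ferritin, which followed at 5515 ± 368 and 4920 ± 871. The step from Dcn to Ftl1 was the only place among the top 20 where neighbours in the ranking did not overlap. The other 18 of 19 neighbouring pairs did, so much of the order is loose. Within each library, though, Ftl1 ranked 3 and Fth1 ranked 4.

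Col3a1, the chain of type III collagen, was at 3443, 5391 and 3224 FPKM, and library 9 was the high one. Fos, an immediate-early transcription factor, was at 3484, 2973 and 3401, the highest of all transcription factor genes. The stress and folding genes in the top 20 were Hspa8 (2816 ± 119), a cytosolic chaperone, Hspa5 (2523 ± 366), its counterpart in the endoplasmic reticulum, and Ubb (2556 ± 169), a ubiquitin gene. Secreted and matrix genes were Igfbp7 (2754 ± 203), Serping1, the inhibitor of complement C1 (2649 ± 251), Gpx3, a secreted glutathione peroxidase (2559 ± 306), Sparc, a collagen-binding glycoprotein (2392 ± 441), Mgp, which restrains calcification (2286 ± 198), Cxcl1 (2108 ± 447) and Igfbp4 (2100 ± 346). Ifitm3 (3070 ± 380), an interferon-induced membrane protein, Egr1 (2341 ± 210), an immediate-early factor, and Tmem176b (2199 ± 163) were the remaining ones with narrow ranges. Adamdec1, an ADAM-like protease known from the gut, was the least even of the 20, at 1518, 1352 and 3274 FPKM, and ranked 31, 39 and 6.

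Between libraries, 15 genes were in the top 20 of every library and 24 in that of any. For the top 100 these numbers were 83 and 117. Ubb shares near-identical sequence with Gm1821, listed at 1822 ± 134, so reads may be divided between them.

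**Figure D3:**
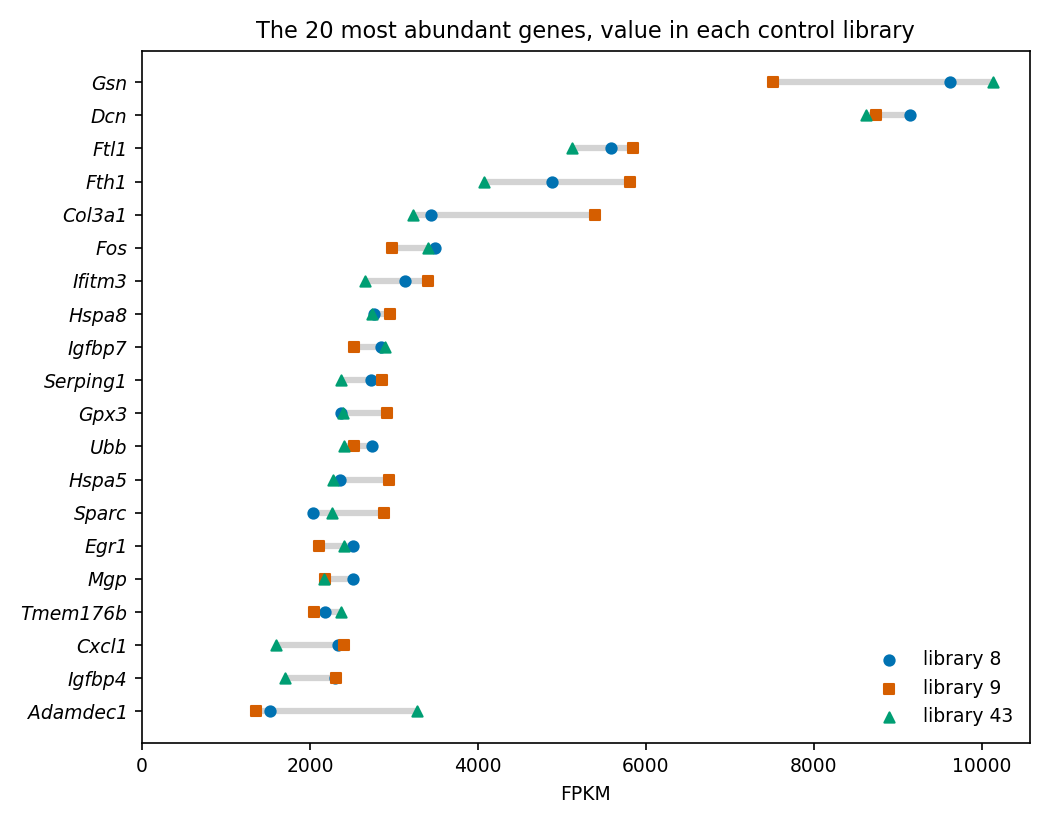
FPKM of the 20 most abundant genes in each control library, a point per library and a grey bar from lowest to highest. Gsn and Dcn are separated from the rest, and Adamdec1 and Col3a1 have the widest ranges relative to their level.

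Promoter sequences were set beside this ranking. RefSeq windows from 250 bases before to 50 after each annotated start (GRCm38.p6) were matched by symbol for 8424 expressed genes, 75 of the 100 most abundant and 14 of the 20 most abundant. Motifs were searched on both strands, and none of the 4 contains another. TATAAA, the core of the TATA box, was in the windows of 24 of the 75 abundant genes (32.0%), of 8.36% of the other expressed genes and of 19.4% of genes not expressed. On the gene's own strand and between 15 and 45 bases before the start, where a working TATA box lies, it was found for 9 of the 75 (12.0%), for 1.32% of the other expressed genes and for 4.58% of genes not expressed. The core of the NF-kB site, taken as GGG, any 2 bases and TTTCC, was found for 6 of the 75 (8%), 1.89% and 1.78%. TGANTCA, the AP-1 site, was found for 11 of the 75 (14.7%), 5.88% and 10.7%. CCAAT was about equally common, at 37.3%, 43.2% and 41.4%. Over all 18052 genes with a window, whether expressed or not, the shares were 14.4% for TATAAA, 1.86% for the NF-kB core, 8.48% for TGANTCA and 42.2% for CCAAT. The median CpG ratio, observed over expected from base composition, was 0.591 in the abundant genes, 0.769 in the other expressed genes and 0.286 in genes not expressed.

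The 120 bases before the start are shown for 3 of the top 20 with such a match, chosen after their values were seen: Fos and Igfbp4, each with TATAAA close to the start, and Cxcl1, with 2 matches to the NF-kB core. The sequences are RefSeq's, on the GRCm38.p6 build and the plus strand, at chr12:85473770-85473889 for Fos, chr11:99041124-99041243 for Igfbp4 and chr5:90891125-90891244 for Cxcl1. Capitals mark the matches.
Fos: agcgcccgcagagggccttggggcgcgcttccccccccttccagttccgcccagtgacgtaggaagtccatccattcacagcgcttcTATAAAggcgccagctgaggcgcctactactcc
Igfbp4: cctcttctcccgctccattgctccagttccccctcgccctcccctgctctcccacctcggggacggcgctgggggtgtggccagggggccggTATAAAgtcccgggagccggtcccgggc
Cxcl1: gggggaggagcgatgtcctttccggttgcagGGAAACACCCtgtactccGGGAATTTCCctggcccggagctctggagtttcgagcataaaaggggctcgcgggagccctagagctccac
TATAAA began 33 bases before the start in Fos and 28 in Igfbp4, and the matches in Cxcl1 began 89 and 71 bases before it, the former on the opposite strand. A match of letters does not show that a factor binds there.

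By gene class, using hand-made lists of families and pathways, 234 of 540 secreted genes, 151 of 231 matrix genes, 218 of 480 receptor and surface genes and 551 of 1037 transcription factor genes were expressed. These were 43.3%, 65.4%, 45.4% and 53.1% of each class, beside 43.2% of all 24346 genes. Their shares of the summed FPKM were 9.14% ± 0.762 for secreted, 9.08% ± 0.290 for matrix, 2.76% ± 0.0450 for receptor and 3.91% ± 0.412 for transcription factor genes. In each library the receptor share was the smallest and the transcription factor share the next. Counted once each, these 1148 genes held 24% of the sum and made up 46 of the 100 most abundant genes. Median levels were 60.2 FPKM for matrix, 30.8 for secreted, 15.4 for receptor and 5.75 for transcription factor genes, beside 11.8 for all ranked genes.

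**Figure D4:**
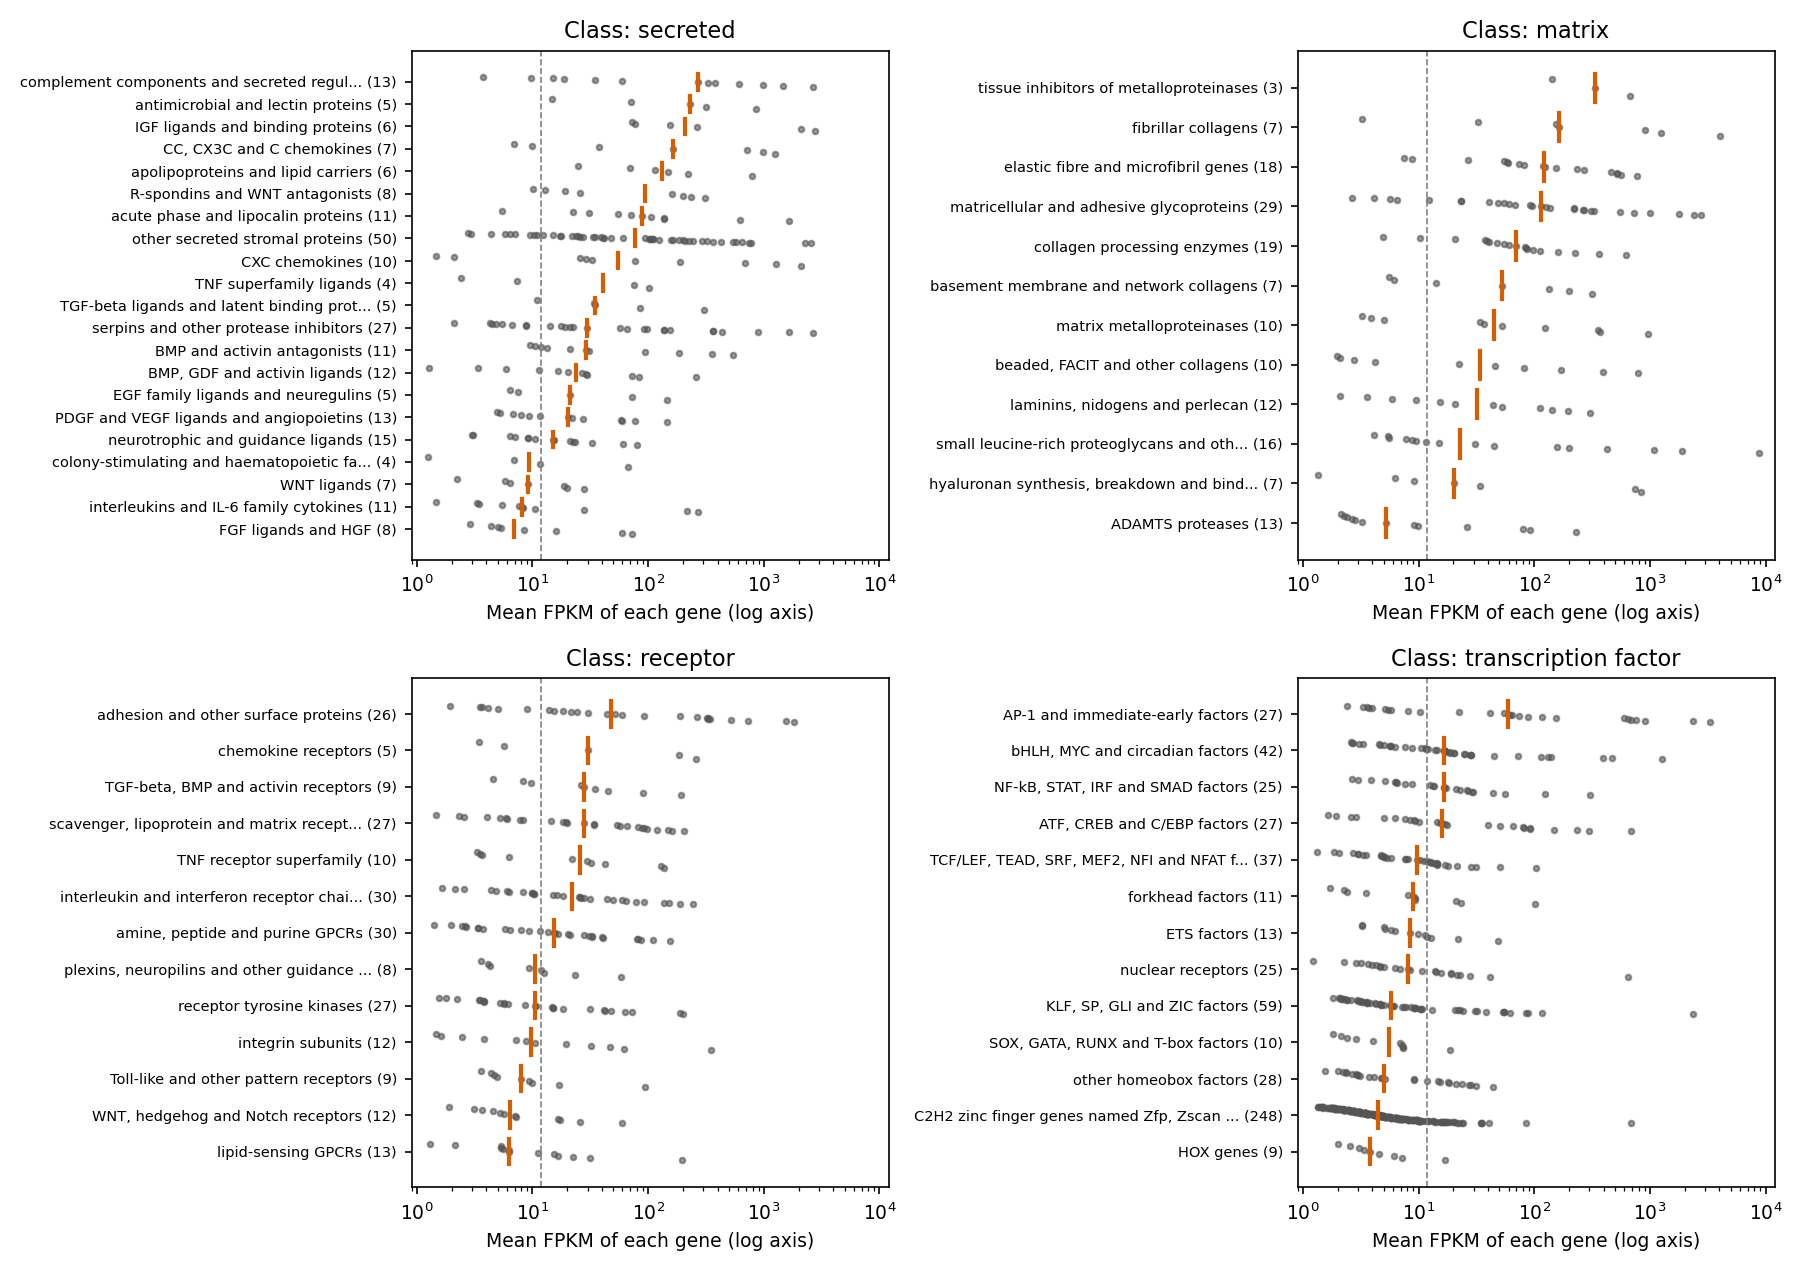
Mean FPKM over the 3 control libraries of each expressed gene, on a log axis, by list within the 4 classes, with the number of genes in brackets. Orange bars are list medians and the dashed line is the median of all ranked genes, 11.8 FPKM. Most matrix lists lie to its right and most transcription factor lists to its left.

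Among the collagens, the fibrillar types led. They give tissue its tensile strength, and 7 of 11 genes were expressed. Behind Col3a1 came Col1a2 at 1061, 1543 and 1122 FPKM and Col1a1 at 704, 1201 and 836. Library 9 was the highest in 6 of the 7, beside 49.0% of expressed matrix genes and 33.3% of all ranked genes. The microfibril collagens Col6a1 (795 ± 114) and Col6a2 (390 ± 49.0) and the fibril-associated Col14a1 (169 ± 7.12) led the beaded and fibril-associated list, with 10 of 22 expressed. Basement membrane collagens were present too, with 7 of 11 expressed, led by Col4a1 (317 ± 15.5), Col18a1 (198 ± 16.7) and Col4a2 (135 ± 12.3). The enzymes and chaperones that fold and secrete collagen were nearly complete: 19 of 22 were expressed, led by P4hb (623 ± 85.2), Serpinh1 (366 ± 51.0), Ppib (228 ± 24.7), Crtap (161 ± 11.6) and Fkbp10 (112 ± 15.8), and 15 of the 19 were highest in library 9.

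The proteoglycan list held the largest matrix share, 2.53% ± 0.0541, of which Dcn alone was most. Lum, which like Dcn binds collagen fibrils, followed at 2013, 1969 and 1716 FPKM, then Bgn (1093 ± 92.8), Ogn (425 ± 50.8) and Prelp (200.4 ± 18), while 11 of 27 genes were not expressed. Matricellular and adhesive glycoproteins held 2.34% ± 0.104, with 29 of 41 expressed. Behind Igfbp7 and Sparc these were Cyr61 (1797 ± 254), an immediate-early matricellular protein, Ecm1 (1008 ± 184) and Pcolce (727 ± 99.1), which helps to process procollagen. Elastic fibre and microfibril genes had 18 of 22 expressed, with a median of 121 FPKM. None of the 18 had over a 2-fold range, beside 10.2% of all ranked genes and 2.19% of those with a mean of at least 100 FPKM. The list was led by Efemp1 (776 ± 76.8), Mfap4 (566 ± 79.1), Fbln1 (525 ± 30.8), Mfap5 (517 ± 76.9) and Fbln2 (459 ± 22.5).

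Laminins and nidogens, the other basement membrane proteins, had 12 of 15 genes expressed, led by Lamb1 (301 ± 35.4), Nid1 (197 ± 21.4) and Lamc1 (143 ± 13.3). In the hyaluronan list the synthase Has1 was at 910, 791 and 822 FPKM, next to Tnfaip6 (747 ± 103), which crosslinks hyaluronan in inflamed tissue, and Cd44 (33.7 ± 1.43), its receptor. The second synthase, Has2, was at 20.1 ± 1.73, far below Has1 in each library. Hyaluronan genes were expressed in 7 of 14 cases.

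Matrix is also taken apart by proteases. Of 23 matrix metalloproteinases 10 were expressed, led by Mmp2 (956 ± 85.5), Mmp3 and Mmp14 (358 ± 24.6), the membrane-bound activator of Mmp2. Mmp3, a stromelysin linked to inflammation, was uneven, at 442, 493 and 167 FPKM. ADAMTS proteases had 13 of 19 expressed at a median of 5.24, led by Adamts1 (228 ± 18), Adamts4 (92.7 ± 7.28) and Adamts2 (79.8 ± 5.89), the last of which trims procollagen. Their inhibitors had a higher median, 335 FPKM over the 3 of 4 that were expressed, beside 44.9 for the metalloproteinases. By share of the summed FPKM the inhibitors held 0.230%, below the 0.385% of the metalloproteinases and above the 0.0927% of the ADAMTS proteases. Timp2 was at 678 ± 93.5, Timp3 at 335 ± 49.97 and Timp1, which inflammatory signals induce, at 159, 196 and 74.3.

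Chemokines were the loudest of the signalling ligands. Of 15 CXC chemokines 10 were expressed. Cxcl1, which draws neutrophils, was at 2330, 2400 and 1593 FPKM, and library 43 was the low one. Cxcl12, which retains leukocytes and progenitor cells, was even at 1345, 1253 and 1248. Cxcl13, which attracts B cells, was at 720, 906 and 454. Of 26 CC, CX3C and C chemokines only 7 were expressed, but these included Ccl7 at 1319, 1630 and 817 and Ccl2 at 674, 1024 and 438, which attract monocytes, and Ccl11 at 990 ± 97.4, which attracts eosinophils. Of the 17 expressed chemokines 13 were lowest in library 43, beside 52.1% of expressed secreted genes and 35.6% of all ranked genes.

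Cytokines were fewer. Of 46 interleukins and IL-6 family genes 11 were expressed, led by Il6 at 270, 307 and 225 FPKM, Il33, an alarmin held in the nucleus, at 218, 338 and 99.4, and Il34 (28.1 ± 1.54), a ligand of the receptor Csf1r. Colony-stimulating factors had 4 of 7, led by Csf1 (66.6 ± 6.18), Kitl (11.7 ± 0.442) and Flt3l (6.96 ± 2.78). TNF family ligands had 4 of 18, led by Tnfsf13b (102 ± 11.8), the B cell factor BAFF, Tnfsf9 (74.8 ± 8.88) and Tnfsf12 (7.28 ± 1.03). The leukocyte cytokines Tnf, Il1b, Ifng, Il17a and Osm were not among the expressed genes.

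Factors of the epithelial niche came from every family but the hedgehog ligands, of which none of 3 was expressed. WNT ligands had 7 of 19 expressed at modest levels, led by Wnt5b (28.1 ± 4.90), Wnt5a (20.04 ± 4.89) and Wnt2 (18.7 ± 5.40). The WNT antagonists were higher, with Sfrp4 at 312, 511 and 106 FPKM, Sfrp1 at 234 ± 28.1 and Dkk3, a member of the Dickkopf family, at 199 ± 30.5. In the joint list of R-spondins and antagonists 8 of 18 were expressed, and Rspo3, which sustains crypt stem cells, was at 12.7 ± 3.44. BMP and activin ligands had 12 of 28, led by Bmp4 at 239, 206 and 341, Bmp1 (83.9 ± 13), which is a procollagen protease despite its name, and Bmp5 (72.6 ± 20.7). Their antagonists had 11 of 14, led by Fstl1 (540 ± 84.7), Nbl1 (355 ± 47.1) and Twsg1 (187 ± 34.9), and Grem1, the antagonist of the crypt base, was at 122, 89.2 and 68.0.

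Growth factors for epithelium and vessels lay below the leading chemokines. Hgf (73.0 ± 17.9), Fgf7 (59.3 ± 6.31) and Fgf10 (16.1 ± 2.80), which act on epithelial receptors, led a list with 8 of 24 expressed. Ereg (145 ± 23.6), Hbegf (72.4 ± 16.4) and Nrg1 (21.2 ± 7.39) led the EGF family, with 5 of 11. The PDGF, VEGF and angiopoietin list was nearly complete at 13 of 15, led by the angiopoietin-like Angptl2 (146 ± 11.3) and Angptl4 (77.2 ± 22.2) and by Figf (59 ± 16), the gene of VEGF-D. Of TGF-beta ligands and their binding proteins 5 of 7 were expressed, led by Ltbp4 (306 ± 78.6), Ltbp1 (85.1 ± 7.11) and Tgfb3 (34.8 ± 1.65). Tgfb1 missed the limit, at 0.779 ± 0.223. Guidance and neurotrophic ligands had 15 of 25, led by Slit3 (80.7 ± 4.13), Sema3c (60.4 ± 6.52) and Mdk (32.8 ± 4.15). In the IGF list 6 of 9 were expressed, led by Igfbp7, Igfbp4 and Igfbp6 (262 ± 20.4), and Igf1 was at 60.7, 98.8 and 60.2.

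Innate defence proteins made up much of the rest. Complement genes held 1.35% ± 0.199 of the sum, with 13 of 27 expressed. C3, the central component, was at 1434, 2001 and 947 FPKM and C1s1, a protease of the classical pathway, at 993 ± 63.2. Acute phase and lipocalin genes had 11 of 18 expressed and held 0.653% in library 8, 0.763% in library 9 and 0.318% in library 43, led by Serpina3n (1963, 1965 and 1034) and Saa3. The list of serpins and other protease inhibitors had 27 of 111 expressed. Behind Serping1 and Serpina3n came the cystatins Cst3 (891 ± 72.1) and Cstb (431 ± 50.2), then Serpinh1, a serpin named above with the collagen-folding genes. Lectins and antimicrobial proteins had 5 of 18, led by Lgals1 (860 ± 54.8), Lgals9 (319 ± 28.9) and Lgals3bp (230 ± 35.5). Lipid carriers had 6 of 22, led by Apoe (784 ± 18.3), Pltp (220 ± 32.5) and Lpl. Among 63 other secreted stromal genes, of which 50 were expressed, Gpx3 and Mgp led, followed by Dpt (782 ± 18.8), a dermatopontin that binds collagen, Tnfaip6 and Sod3 (651 ± 26.8), the extracellular superoxide dismutase.

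On the receiving side, levels were lower, and the median coefficient of variation over the mice was 17.2% against 21.3% for secreted genes. Receptor tyrosine kinases had 27 of 52 expressed, led by Axl (202 ± 8.99), the receptor of Gas6, Pdgfra (188 ± 11.0), the collagen receptor Ddr2 (71.9 ± 3.80), Fgfr1 (62.8 ± 3.62) and Fgfr2 (47.6 ± 8.94). Cytokine receptor chains had 30 of 59, led by Ifngr1 at 229, 229 and 280 FPKM, Il6st (188 ± 39.1), the shared chain of IL-6 family receptors, Il11ra1 (150 ± 34.2), Ifnar2 (138 ± 20.2) and Lepr (91.5 ± 18.7). TNF receptors had 10 of 28, led by Tnfrsf1a (138 ± 16.3), Tnfrsf12a (130 ± 11.2) and Ltbr (42.1 ± 6.48). TGF-beta family receptors had 9 of 14 and none over a 2-fold range, beside 10.2% of all ranked genes. These receptors were led by Tgfbr2 at 182, 208 and 188, Tgfbr3 (90.0 ± 2.40) and Acvrl1 (44.6 ± 1.01). WNT, hedgehog and Notch receptors were low, 12 of 26 with a median of 6.34, led by Fzd1 (59.6 ± 6.10), Smo (25.5 ± 0.547) and Boc (17.4 ± 4.46).

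Integrins, which anchor cells to matrix, had 12 of 26 subunits expressed, led by the common beta chain Itgb1 (348 ± 11.9), Itgb5 and Itga5 (46.9 ± 10.5). Itgb5 was at 78.8, 37.7 and 68.9 FPKM, with library 9 the low one. Pattern receptors and their adaptors had 9 of 20, led by the adaptor Myd88 (94.7 ± 22.8), Nod1 (17.0 ± 2.62) and Tlr4 (9.95 ± 0.836). All 5 expressed genes of the 24 in the chemokine receptor list were of the atypical or chemokine-binding kind: Ackr3 (259 ± 4.17), a scavenger of Cxcl12, Ackr4 (183 ± 27.4), Ccrl2 (30.4 ± 2.85), Ackr1 and Ackr2. Of 109 genes for amine, peptide and purine receptors 30 were expressed, led by the thrombin receptor F2r (154 ± 32.7), the bradykinin receptor Bdkrb1 (110 ± 22.3), P2ry14 (87.6 ± 24.8), the endothelin receptor Ednra (81.1 ± 9.69) and the receptor partner Ramp2 (80.2 ± 13.8). Lipid receptors had 13 of 31, led by Lpar1 (195 ± 13.3), S1pr2 (31.2 ± 7.34) and the prostaglandin receptor Ptger4 (22.6 ± 5.48).

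Among the remaining surface proteins, guidance receptors had 8 of 21 expressed, led by Nrp1 (58.8 ± 6.85), Plxnb2 (23.5 ± 3.28) and Neo1 (12.5 ± 1.15). Scavenger, lipoprotein and matrix receptors had 27 of 33, led by the syndecan Sdc2 (202 ± 48.8), Cd248 (160 ± 34.9), the ferritin receptor Scara5 (148 ± 21.8), Gpc3 (119 ± 21.5) and Scarb2 (98.7 ± 9.92). The list of adhesion and other surface proteins had 26 of 37 and held 1.35% ± 0.0965, led by the tetraspanin Cd63 (1820 ± 120), Ly6a (1555 ± 228), Ly6c1 (728 ± 196), Cd9 (524 ± 36.7) and Cd34 (343 ± 12.1).

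Ligands were then set beside their receptors for 54 pairs. Both sides were expressed in 23 pairs, the receptor only in 17, the ligand only in 10 and neither in 4. Each ligand was set beside 1 chosen receptor, and others that bind it were not counted. Levels were per gene, so splice forms of a receptor, such as those of Fgfr2, were not told apart. Pairs with both sides included Gas6 (246 ± 83.0) and Axl, Bmp4 and Bmpr1a (35 ± 7.42), Fgf7 and Fgfr2, Hbegf and Egfr (42.6 ± 5.63), Il33 and Il1rl1 (18.5 ± 4.61), Il6 and Il6ra (8.27 ± 1.99), Il11 (8.07 ± 2.84) and Il11ra1, and Col1a1 and Ddr2. Igf1r, the receptor for Igf1, was only just expressed, at 1.55 ± 0.326.

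The 17 receptor-only pairs held several cytokines known from leukocytes. Ifng, Osm, Il4, Il13 and Il17a were listed at 0 in all 3 libraries, while their receptors Ifngr1, Osmr (43.8 ± 7.07), Il4ra (25.9 ± 0.991), Il13ra1 (49.9 ± 15.9) and Il17ra (10.3 ± 5.39) were expressed. Tnf was at 0.362 ± 0.150 beside Tnfrsf1a, and Il1b at 1.01 ± 0.312, below the limit in 1 library, beside Il1r1 at 79.6, 68.8 and 44.8. Of the other pairs in this group, Tgfbr2 stood without Tgfb1, Pdgfrb without Pdgfb (0.217 ± 0.375), Ednra without Edn1 (0.768 ± 0.564), Ltbr without Ltb (0.377 ± 0.341), and Ptch1 (7.27 ± 2.30) without Ihh and Shh. Other ligands of 2 of these receptors were expressed, as Tgfb3 and Tgfb2 (10.9 ± 1.73) bind Tgfbr2 and Pdgfd (27.2 ± 6.95) binds Pdgfrb.

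In 10 pairs the ligand was expressed and the receptor set beside it was not. Cxcl12 stood beside Cxcr4 listed at 0, though its scavenger Ackr3 was expressed, Cxcl1 beside Cxcr2 at 0.774, 0.916 and 0.967, Ccl2 beside Ccr2 at 0.0439 ± 0.0382 and Csf1 beside Csf1r at 0.848 ± 0.352. Hgf stood beside Met, which was at 1.21 ± 0.506 and missed the limit in 1 library, Rspo3 beside Lgr5 at 0.0475 ± 0.0609, Nrg1 beside Erbb3 at 0.551 ± 0.313, Vegfa (20.1 ± 3.69) beside Kdr at 0.340 ± 0.231 and Vegfc (11.7 ± 3.70) beside Flt4 listed at 0. For Kitl the receptor Kit was at 7.04, 4.76 and 0.809 FPKM, expressed in libraries 8 and 9 only. The pairs with neither side were Il10 and Il10ra, Il22 and Il22ra1, Gdnf and Ret, and Csf3 and Csf3r, where Csf3, a neutrophil growth factor, was at 6.86, 11.3 and 0.364.

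Transcription factor genes were mostly low, with a few very high ones. The AP-1 and immediate-early list, genes that many stimuli induce quickly, had 27 of 28 expressed with a median of 59.0 FPKM and held 1.99% ± 0.227 of the sum, the larger part of the class share. Behind Fos and Egr1 came Junb at 964, 755 and 1003, Jun at 829, 704 and 730 and Atf3 at 710, 652 and 686. The cells were sorted live from whole colons, and the part of that handling in these levels was not tested. Of the 27 genes 20 were lowest in library 9, as were 48.8% of all expressed transcription factor genes and 35% of all ranked genes. Helix-loop-helix and related genes had 42 of 81 expressed, led by Id3 (1271 ± 113), an inhibitor of such factors, Hes1 (469 ± 124), a Notch target, Tcf21 (394 ± 103), a fibroblast factor, Id2 (139.8 ± 18) and Bhlhe40 (131 ± 3.79).

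Stress and immune factors came next. ATF, CREB and C/EBP genes had 27 of 33 expressed, led by Atf3, Xbp1, Cebpd (236 ± 15.3), Atf4 (150 ± 5.20) and Nfil3 (92.6 ± 10.1). NF-kB, STAT, IRF and SMAD genes had 25 of 29, led by Irf1 at 318, 253 and 342 FPKM, Stat3 (125 ± 19.6), Rela (55.5 ± 1.64), Stat6 (44.3 ± 5.88) and Irf8 (29.4 ± 5.70), which is better known from myeloid cells. Nuclear receptors had 25 of 47, led by the immediate-early Nr4a1 (652 ± 98.3) and Nr4a2 (41.2 ± 2.43), then Nr1h2 (27.9 ± 0.703), the glucocorticoid receptor Nr3c1 (22.7 ± 4.21) and Nr1d1 (21.4 ± 3.73). Among 107 KLF, SP, GLI, ZIC and other named zinc finger genes 59 were expressed, where Egr1 was followed by Klf6 (116 ± 7.41), Egr2 (89.2 ± 5.33), Osr1 (85.8 ± 3.63) and Klf4 (62.3 ± 2.64).

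Factors of position and lineage were fewer and lower. Foxf1, which mesenchyme of the gut needs, was at 99.9, 82.2 and 121 FPKM, ahead of Foxn3 (23.2 ± 6.45) and Foxf2 (21.2 ± 6.38), and 11 of 44 forkhead genes were expressed. Homeobox genes outside the HOX clusters had 28 of 115, led by Nkx2-3 (43.7 ± 9.24), a factor of gut and spleen mesenchyme, Meis1 (31.2 ± 1.76), Tgif1 (28.7 ± 1.55), Pitx1 (27.4 ± 3.33) and Prrx2 (23.7 ± 7.71). Of 39 HOX genes, which mark position along the body axis, 9 were expressed, led by Hoxa10 (17.1 ± 1.27), Hoxa11 (7.26 ± 1.33) and Hoxd10 (6.08 ± 3.09). SOX, GATA, RUNX and T-box genes had 10 of 44, led by Cbfb (18.9 ± 2.72), the partner of RUNX factors, Runx1 (7.36 ± 1.03) and Sox4 (7.29 ± 1.64). ETS genes had 13 of 26, led by Ets2 (48.3 ± 8.41), Elf1 (21.8 ± 4.88) and Elf2 (12.9 ± 0.311).

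The mixed list of TCF/LEF, TEAD, SRF, MEF2, NFI, NFAT and other factors had 37 of 74 expressed, led by Ybx1 (104 ± 13.1), Wwtr1 (51.1 ± 0.498), the gene of the mechanically controlled coactivator TAZ, Trp53 (31.6 ± 6.60), Nfyc (28.6 ± 1.94) and E2f4 (21.3 ± 2.51). Zinc finger genes named Zfp, Zscan or Zkscan were the most numerous, 248 of 381, with a median of 4.48 FPKM. Their leader, Zfp36 (687 ± 56.6), is an RNA-binding protein that destabilises cytokine mRNA and no classical transcription factor, and Zfp207 (84.9 ± 4.88), Zfp637 (40.4 ± 3.41), Zfp260 (35.6 ± 7.30) and Zfp706 (34.9 ± 1.10) followed.

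Genes of general cell function set the scale for these levels. In those lists 396 of 443 genes were expressed and held 20.7% ± 1.26, 5.20% ± 0.393 of it in 83 cytosolic ribosomal protein genes led by Rpl41 (1239 ± 167), Rpl13 (1063 ± 85.6), Rps18 (823 ± 100.1), Rps19 (809 ± 132) and Rpl10 (713 ± 64.4). Ferritin, metallothionein and antioxidant genes held 3.74% ± 0.400, chaperones 2.36% ± 0.183 and oxidative phosphorylation 2.30% ± 0.0429. Interferon-stimulated genes had 34 of 40 expressed, with a median of 14.2 FPKM but a share of 1.57% ± 0.112, since Ifitm3, Ifitm2 (1615 ± 217), Ifi27l2a (1341 ± 125) and Ifitm1 (1104 ± 59.8) were far above the fifth, Lgals3bp. MHC class I genes had 15 of 26, led by H2-D1 (1782 ± 498), B2m (1658 ± 249) and H2-K1 (484 ± 131). Actin and contractile genes had 33 of 33, led by Tmsb4x (1423 ± 92.8), Actg1 (1248 ± 165), Myl6 (842 ± 59.5), Vim (524 ± 11.7) and Pfn1 (515 ± 52.7). Proliferation genes had 17 of 29, with Pcna at 91.7 ± 6.84, then Mcm6 (14.1 ± 5.67), Mcm4 (13.3 ± 1.08), Ccne1 (9.36 ± 1.85) and Cdc20 (7.66 ± 1.48).

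The 3 mice were alike over most genes. Pearson's r of log2(FPKM + 1) over the 10508 genes was 0.980 between libraries 8 and 9, 0.977 between 8 and 43 and 0.972 between 9 and 43, a description across genes that share their length and composition. The median coefficient of variation was 15.1%. The highest library was over 2 times the lowest in 1071 of the 10508 genes, 10.2%. This share depended on level: it was 25.5% at means from 1 to 3 FPKM 1.56% from 100 to 300, 3.15% from 300 to 1000 and 5.77% (3 of 52 genes) above 1000. Against that 10.2%, secreted genes had 53 of 234 (22.6%) over a 2-fold range, receptor genes 31 of 218 (14.2%), matrix genes 21 of 151 (13.9%), transcription factor genes 65 of 551 (11.8%) and the cell function lists 20 of 396 (5.05%). The classes were not matched on level: 57.6% of the cell function genes had a mean of at least 100 FPKM, where 2.19% of all ranked genes had over a 2-fold range. The steadiest of the abundant genes were Ost4 at 399, 397 and 398 FPKM, 9530068E07Rik (224 ± 1.00) and Cnbp (283 ± 1.25).

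Among genes with a mean of at least 5 FPKM, the 10 with the widest range were Ctla2a (5.90, 36.4 and 1.12 FPKM in libraries 8, 9 and 43), Rps27, Cthrc1, Dmkn, Tgoln2, Lcn2, Ccl19, Cd36, Saa1 and Lrg1. Library 43 was the lowest in 8 of them, beside 400 of all 1071 ranked genes over a 2-fold range. Cthrc1, a secreted protein of activated fibroblasts, was at 25.7, 59.4 and 3.30 FPKM. Lcn2, a lipocalin that withholds iron from bacteria, was at 28.6, 59.8 and 4.38, and the chemokine gene Ccl19 at 22.2, 83.6 and 6.73. Saa1 (3.62, 11.7 and 1.04) and Lrg1 (9.92, 33.0 and 3.12) are acute phase genes as well. Dmkn, an epithelial secreted protein, was at 12.3, 26.3 and 1.61, and Tgoln2, of the trans-Golgi network, at 18.2, 18.7 and 1.36. The exceptions were Cd36, a fatty acid receptor, at 1.54, 3.75 and 18.3, and Rps27 at 6.88, 10.9 and 149. Rps27 has a close copy, Rps27rt, at 1061 ± 62.6, so its reads may be divided differently between libraries.

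Of all 1071 ranked genes over a 2-fold range, 400 were lowest in library 43 and 361 highest in library 9. Of the 914 genes with a mean of at least 100 FPKM, 20 had over a 2-fold range. Of these 20, 18 were lowest in library 43 and 17 highest in library 9. Saa3, an acute phase gene, was at 659, 1022 and 202 FPKM. Sfrp4, Il33, Mmp3, Timp1, Cfb, Ccl2, Ccl8, C3, Lbp, Steap4, Mt1 and Mt2 were also among them, named here after their values were seen. Igfbp3, which binds IGFs, ran the other way at 63.6, 85.4 and 313, as did Adamdec1.

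**Figure D5:**
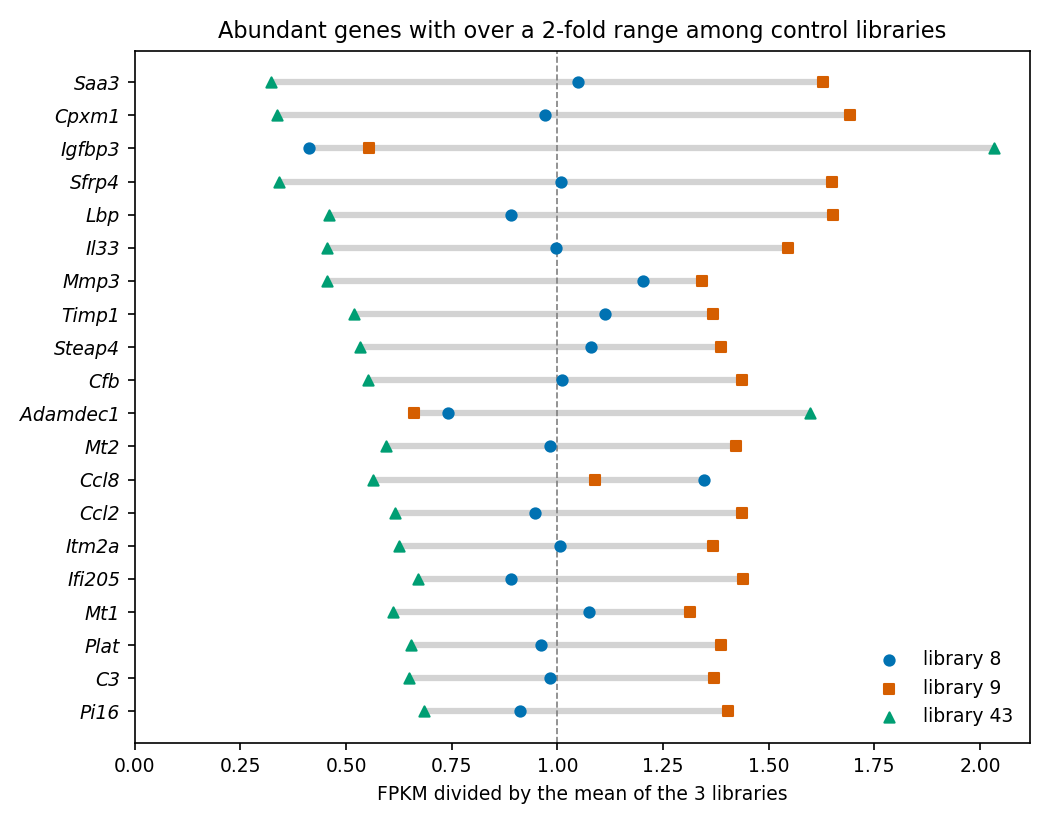
The 20 genes with a mean of at least 100 FPKM and over a 2-fold range, each library's FPKM divided by the mean of the 3 libraries. Library 43 (triangles) is lowest in 18 genes, and Igfbp3 and Adamdec1 are the 2 in which it is highest.

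Whole lists shared this order. In the acute phase list all 11 expressed genes were lowest in library 43, 9 were highest in library 9, and 9 had over a 2-fold range, Hp among them at 64.7, 179 and 23.3 FPKM. In the complement list 11 of 13 were lowest in library 43 and 9 highest in library 9, as Cfb was at 331, 471 and 181. Among ribosomal protein genes 74 of 83 were lowest in library 43 and 76 highest in library 9, with a median coefficient of variation of 11.4%. Over all ranked genes 35.6% were lowest in library 43 and 33.3% highest in library 9. Over expressed secreted genes, the class of the acute phase and complement lists, these shares were 52.1% and 38.5%. Over expressed cell function genes, the class of the ribosomal list, they were 59.8% and 61.6%. Median-of-ratios scaling, an alternative added after the values were seen, divides the libraries by 1.01, 0.997 and 1.01. It left the counts for library 43 as they were, but its factors differ so little that this says little about them. Forkhead genes had another order, with 9 of 11 highest in library 43 and 9 of 11 lowest in library 9. These shares were 36.1% and 35% over all ranked genes, and 49.4% and 48.8% over expressed transcription factor genes. HOX genes had 7 of 9 highest in library 43 and 6 of 9 lowest in library 9. These are differences between single mice without a replicate check.

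Marker levels of other cells also differed between these libraries, and their part in the differences was not tested. Summed over all 10 genes, the pan-leukocyte list was at 16.8, 26.3 and 10.4 FPKM in libraries 8, 9 and 43, with 2 of 10 expressed and Ptprc below 0.5 throughout. The neutrophil list summed to 3.80, 13.2 and 2.65, with 0 of 13 expressed and Camp, Ltf, Ngp and Trem1 at 0. The epithelial list summed to 30.7, 55.2 and 35.3 with 1 of 22 expressed, and Krt8 was at 0.0653, 7.01 and 0.593. The mesothelial list, for which the sort had no excluding marker, summed to 3.16, 22.5 and 6.52 with 1 of 10 expressed. The macrophage and dendritic cell list summed to 61.7, 57.0 and 62.5, with 9 of 18 expressed and Fcgr1 at 0. Between fibroblast types, 9 of the 13 expressed markers of fibroblasts with high Pdgfra were highest in library 43, beside 36.1% of all ranked genes. Of the 14 markers of Cd81 or Cd34 fibroblasts, 9 were lowest in library 43, beside 35.6% of all ranked genes. The whole lists of 15 and 14 genes summed to 1933, 1913 and 2052 FPKM and to 6092, 7063 and 5016.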

How the data were processed

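The values were gene-level FPKM deposited by the authors, 1 table per mouse. Per the labels' protocols, total RNA was amplified as full-length cDNA and tagmented, which does not keep the strand, so overlapping and antisense genes cannot be told apart. Per the submitters' processing notes, TopHat2 2.1.1, Bowtie2 2.2.8, SAMtools 0.1.18 and Cuffdiff 2.2.1 were used with mm10. The annotation release and options are not given in the sources used here. No mitochondrial genome genes were in the tables.

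Python 3.11.15 with pandas 2.3.3, numpy 2.4.6 and scipy 1.17.1 was used. Expressed genes, shares, ranges and correlations were computed from the 3 control tables. Shares are of summed FPKM, thus per length. The procedure was tested on simulated data. Gene types and coordinates came from GENCODE M21, which matched 10480 of the expressed genes by name. Small RNA genes were set aside by name, including 4 long host genes (Mir143hg, Mir155hg, Mir17hg, Mir22hg).

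The 94 lists (22 of markers, with 5 listed symbols not in the tables) and the members were chosen with earlier results of these data known, and 1 misplaced gene was later removed from the collagen processing list. Named genes were the 20 most abundant, 3 leaders per list (5 in lists of over 15), the 10 with the widest range at a mean of at least 5 FPKM, the sort genes, Pdgfra and the Il10 receptor chains, the genes nearest the limit and the 54 ligand and receptor pairs. Lists and pairs are given by counts with part of these genes named, and 1 marker gene is not reported here. Alternatives were other limits, pseudocounts, scalings (TPM, median of ratios), Spearman's rho and leaving out each library.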

Additional observations from a re-analysis of the deposited data

How the results depend on the processing

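The number of expressed genes (10522) stayed within 1.5 times under every alternative tried, from 7155 at a limit of 5 FPKM to 11457 at 0.5. The share of the 100 most abundant genes and the 4 class shares moved by less than 1 SD when small RNA genes were kept or all genes formed the denominator. With a library left out, the former was 30.2% to 30.7%, the secreted share 8.81% to 9.56%, matrix 8.93% to 9.23%, receptor 2.74% to 2.79% and transcription factor 3.76% to 4.15%. The number of genes over a 2-fold range, 1071, moved most: it was 211 at a limit of 5 FPKM, 537 with 1 FPKM added to each value, and 451 (without library 43) to 622 (without library 8) when only 2 libraries were compared, which by construction gives fewer, and 1073 and 1119 under median-of-ratios scaling and TPM. The lowest correlation between libraries, 0.972, was 0.967 with a pseudocount of 0.1, 0.979 with 5 and 0.960 as Spearman's rho. With a library left out it was 0.972 to 0.980. That leaves only 1 pair of libraries, so it nearly repeats the pair values above and is no further check. The mean levels of 37 named genes moved by less than 1 SD under median-of-ratios scaling, and rescaling to TPM multiplied them by 1.91 to 2.03. Leaving out 1 library moved 9 of the 33 with a mean of at least 1 FPKM by over 1.5 times. Without library 9, Ctla2a fell from 14.5 to 3.51, Cthrc1 from 29.5 to 14.5, Dmkn from 13.4 to 6.97, Lcn2 from 30.9 to 16.5, Ccl19 from 37.5 to 14.5, Saa1 from 5.45 to 2.33 and Lrg1 from 15.3 to 6.52. Without library 43, Rps27 fell from 55.6 to 8.90 and Cd36 from 7.87 to 2.64. No paired analysis was possible because 1 group was described. Depth was known only roughly, and levels near 1 FPKM are the least certain.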

Other observations

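Long noncoding RNA genes were a small share of the landscape. Genes annotated as lincRNA numbered 58 and held 0.308% of the summed FPKM. Malat1, a nuclear RNA, was at 553, 556 and 604 FPKM in libraries 8, 9 and 43, AW112010, a transcript known from immune activation, at 410 ± 17.8 and Gas5, a host of small nucleolar RNAs, at 103 ± 3.61 (SD, n = 3). These genes were named after their values were seen, and 41 ranked genes had no match in the annotation by name.

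Beta-globin genes differed between mice. Hbb-b1 was at 26.3 and 52.1 FPKM in libraries 8 and 9 and at 0.203 in library 43, while Hbb-bs was at 0.0240 and 0.0510 in libraries 8 and 9 and at 51.5 in library 43. Hba-a1, an alpha-globin gene, was at 47.2, 94.2 and 73.8. The class I histocompatibility genes H2-Q7 (39.98, 39.3 and 11.99) and H2-Q9 (14.9, 15.4 and 2.82) also set library 43 apart. The globin genes and the H2-Q genes have close copies, and whether reads were divided among them was not tested. Nor was any other source of these differences between the mice.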
